A study of Mus musculus with 8 samples.

Results

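Homologous recombination and Fanconi repair genes were examined in samples labelled as primary mouse aortic smooth muscle cells, with and without the actin-stabilising compound jasplakinolide. The group was a list of 35 gene symbols drawn up by function, with earlier results of these data known. Of these, 33 had a probe set with a single gene symbol, out of 19938 genes measured, and Xrcc2 and Rbbp8 are not analysed here. Expression was measured on 8 Affymetrix arrays as log2 RMA levels, in which 1 unit is a doubling. The cells came from C57Bl6 mice and were used at passage 3 to 4. Both groups grew in DMEM and 10% FCS for 24 h, the 4 control samples with nothing added and the 4 treated samples with jasplakinolide at 100 nM. Groups were taken from the sample titles, because the treatment text of the control samples names the compound too. Separate animals or cultures are not mentioned in the labels, so a p-value here covers sample-to-sample spread that could be technical.

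Homologous recombination repairs a double-strand break by copying an intact sister chromatid. The ends are trimmed to single strands, which BRCA proteins and their partners prepare for pairing with the sister, and the joined molecules are taken apart by helicases and nucleases. The Fanconi pathway hands interstrand crosslinks to the same machinery: a core complex attaches ubiquitin to FANCD2 and FANCI. Because a sister chromatid is needed, many of these genes are known to be expressed mainly in S and G2 phase of dividing cells, and transcription factors of the E2F family control a number of them. In cultured smooth muscle cells, which divide in serum, their transcripts are therefore ordinarily present.

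With jasplakinolide, 31 of the 33 genes had a lower mean than in control (a lower mean was found for 43.6% of all genes), but the shifts were small. The median log2 difference was -0.17, against 0.01 over all genes, and single genes lay between -0.36 (Fancd2) and 0.08 (Mus81). None of the 33 passed the test (limma, Benjamini-Hochberg adjusted p under 0.05 over all genes), in which 0.336% of all genes fell and 0.436% rose. A difference of -0.2 or lower was found for 13 of the 33, and for 3.46% of all genes. At an unadjusted p under 0.05, 18 of the 33 were lower and 0 higher, where 4.71% of all genes were lower and 4.16% higher. In 5 genes all 4 jasplakinolide arrays lay below all 4 control arrays, which was so for 3.29% of all genes, and in 0 did they lie above (3.62% of all genes). These counts are not independent, since the genes moved together from array to array, as described below. Between 29 and 32 of the genes had a lower mean in every alternative that tested all 33. Besides Mus81 and Fancc, whose means were higher, the genes that changed sign in 1 or more fits were Rmi1, Nbn, Rad51d and Atr, with differences of -0.01 to -0.05.

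The arrays were not equivalent for these genes. Jasplakinolide 4 scored 19.4 and control 2 scored 12.1 on the first principal component of all genes (43.3% of the variance), whereas control 1 (-13.4) and control 3 (-14.3) scored lowest. The median of 1027 olfactory receptor genes was 5.05 log2 on jasplakinolide 4, 5.04 on control 2 and at most 4.97 elsewhere. Of the 33 repair genes, 24 had their lowest control value on control 2, and 26 their lowest jasplakinolide value on jasplakinolide 4. Jasplakinolide 4 was the lowest of all 8 arrays for 24 of them, as it was for 20.1% of all genes, and control 1 was the highest for 20 of them, as for 13.5% of all genes. With control 2 and jasplakinolide 4 left out, the median difference was -0.15 and 31 genes still had a lower mean. Without them 19 were lower at an unadjusted p under 0.05 (5.31% of all genes), and in 16 the groups did not overlap (7.12% of all genes). The olfactory signal's part in the result was not tested.

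**Figure D1:**
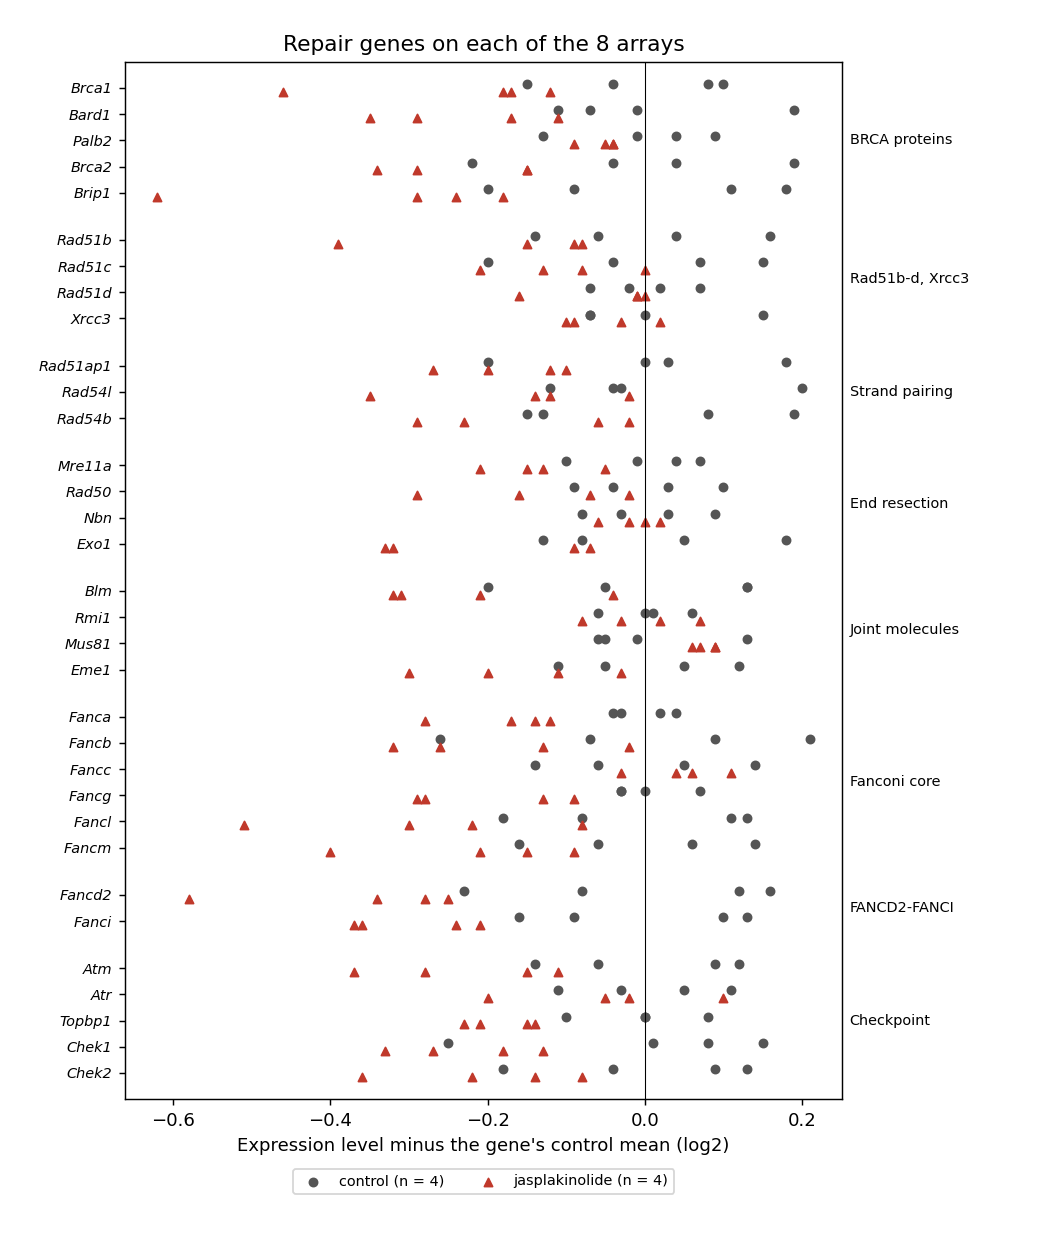
Level of each of the 33 repair genes on every array (log2), as the difference from that gene's control mean; circles are the 4 control arrays and triangles the 4 jasplakinolide arrays, and genes are grouped by role. Most triangles lie left of 0, but only for Fanca, Fancg, Fancd2, Fanci and Topbp1 do all 4 lie left of every circle.

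Promoter sequences were set beside these values because most of the genes moved together. Of the 33 genes, 27 had a promoter window (all but Exo1, Fancd2, Nbn, Rad50, Rad51d and Rad54b) in the RefSeq table (GRCm38.p6), which runs from 250 bases before to 50 after the annotated start, and 4 of these had more than 1 window. They were searched on both strands for E2F sites (TTTCCCGC, TTTGGCGC, TTTCGCGC or TTTGCCGC), for the cell cycle homology element (TTTGAA) and for the CCAAT box (CCAAT). None of these letter strings contains another. An E2F site was found for 7 of the 27 genes (25.9%) and for 2.6% of all 27025 genes in the table, which include non-coding genes. The 7 were Bard1, Brca2, Chek2, Fancg, Rad51c, Rmi1 and Topbp1. A CCAAT box was found for 16 (59.3%, against 41.1% of all), and TTTGAA for 3 (11.1%, against 20.2%), namely Bard1, Eme1 and Rad51b. Such a match describes the letters and does not show a working site.

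The upstream stretches of the 4 genes with the largest differences among those holding a searched motif are printed to show where the matches lie, from 250 bases before the start up to the start, 5′ to 3′ on the gene's strand. Capitals mark the matches. ATTGG is CCAAT read on the opposite strand.
Brip1, 250 bases, chr11:86201194-86201443, minus strand: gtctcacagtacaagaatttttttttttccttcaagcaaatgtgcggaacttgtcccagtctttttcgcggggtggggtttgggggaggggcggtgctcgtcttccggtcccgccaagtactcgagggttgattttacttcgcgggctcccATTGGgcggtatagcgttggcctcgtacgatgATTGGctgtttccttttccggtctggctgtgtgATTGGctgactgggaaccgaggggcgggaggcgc
Brca1, 250 bases, chr11:101551956-101552205, minus strand: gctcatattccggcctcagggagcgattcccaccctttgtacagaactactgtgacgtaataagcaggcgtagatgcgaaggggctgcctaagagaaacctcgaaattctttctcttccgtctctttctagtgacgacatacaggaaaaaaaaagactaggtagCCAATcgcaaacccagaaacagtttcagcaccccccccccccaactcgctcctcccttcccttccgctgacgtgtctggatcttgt
Bard1, 250 bases, chr1:71102973-71103222, minus strand: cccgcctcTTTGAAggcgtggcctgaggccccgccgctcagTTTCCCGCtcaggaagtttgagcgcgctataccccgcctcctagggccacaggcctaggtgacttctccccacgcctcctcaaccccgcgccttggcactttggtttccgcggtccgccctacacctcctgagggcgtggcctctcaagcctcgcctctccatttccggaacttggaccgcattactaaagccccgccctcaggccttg
Atm, 250 bases, chr9:53536672-53536921, minus strand: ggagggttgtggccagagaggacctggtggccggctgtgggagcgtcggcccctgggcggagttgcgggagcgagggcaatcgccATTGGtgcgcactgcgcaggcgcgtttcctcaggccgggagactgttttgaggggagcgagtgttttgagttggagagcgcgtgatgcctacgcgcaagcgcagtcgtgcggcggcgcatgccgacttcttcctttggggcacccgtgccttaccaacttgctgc
Brip1 held 3 CCAAT boxes in the opposite orientation, whose first bases lay at -99, -67 and -34 from the start. Brca1 held 1 in the gene's own orientation at -86, and Atm 1 in the opposite orientation at -165. Bard1 held TTTGAA at -242 and the E2F site TTTCCCGC at -209. At least 1 of these strings was found for 22 of the 27 genes (81.5%, against 53.5% of all genes in the table). The differences of these 22 ran from -0.33 (Brip1) to 0.04 (Fancc). Fanci (-0.29), Fancl (-0.27), Chek1 (-0.23), Atr (-0.05) and Mus81 (0.08) held none of the strings in their windows. Whether the matches go with the differences was not tested.

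The FANCD2 and FANCI proteins form the clamp that the Fanconi core complex ubiquitinates at a crosslink, and their transcripts had the first and the third largest differences. Fancd2 (probe set 10540738) measured 8.58, 8.19, 8.54 and 8.34 log2 on control arrays 1 to 4 and 8.14, 8.08, 8.17 and 7.84 on jasplakinolide arrays 1 to 4. The groups did not overlap, although control 2 lay only just above the jasplakinolide arrays. The log2 difference was -0.36 ± 0.10 (SE, n = 4 each; limma adjusted p = 0.211), with a 95% interval of -0.58 to -0.13. Fanci (10554281) measured 8.67, 8.38, 8.64 and 8.45 in control and 8.33, 8.18, 8.30 and 8.17 with jasplakinolide. Again the groups did not overlap, and control 2 was the lowest control. Its difference was -0.29 ± 0.07 (SE, n = 4 each), 1.23-fold lower, and it had the smallest adjusted p of the 33 genes (limma, 0.151). With the replicate number as a block Fanci passed (limma adjusted p = 0.0321), the only one of the 33 to do so, where 1.08% of all genes fell, and none rose (0.813% of all genes). That call was lost when number 1, 3 or 4 was left out of the blocked fit (limma adjusted p = 0.171, 0.217 and 0.134). In those fits 0.0351%, 0% and 0% of all genes fell. The call held without number 2 (limma adjusted p = 0.0339), where 1.32% of all genes fell. Over the fits without the block its adjusted p ran from 0.055 to 0.38.

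Of the 6 Fanconi core genes, which encode parts of the ubiquitin ligase and its DNA anchor, 5 had a lower mean and none passed, with a median difference of -0.19. Fancl, the ligase subunit itself, measured 8.12, 7.81, 8.10 and 7.91 log2 in control and 7.77, 7.69, 7.91 and 7.48 with jasplakinolide, a difference of -0.27 ± 0.10 (SE, n = 4 each; limma adjusted p = 0.401). Control 2 lay below jasplakinolide 3, so the groups overlapped. Fancm, the DNA translocase that anchors the complex, measured 8.01, 7.71, 7.93 and 7.81 in control and 7.78, 7.66, 7.72 and 7.47 with jasplakinolide (-0.21 ± 0.08, SE, n = 4 each; limma adjusted p = 0.472). Here control 2 lay below jasplakinolide 1 and 3.

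Fanca and Fancg, which bind each other in the core, are given because their groups did not overlap, a choice made after their values were seen. Fanca measured 9.09, 9.02, 9.07 and 9.01 log2 in control and 8.91, 8.88, 8.93 and 8.77 with jasplakinolide, a difference of -0.17 ± 0.05 (SE, n = 4 each; limma adjusted p = 0.217). Fancg measured 9.03, 9.10, 9.00 and 9.00 in control and 8.94, 8.74, 8.90 and 8.75 with jasplakinolide (-0.20 ± 0.06, SE, n = 4 each; limma adjusted p = 0.230). For Fancg control 2 was the highest control, unlike for Fanca and most of the others. Fancb, which stabilises the ligase subunit, differed by -0.18 ± 0.11 and Fancc by 0.04 ± 0.07 (SE). Fancc was the only core gene with a higher mean, and its 95% interval ran from -0.10 to 0.19.

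Among the BRCA proteins and their partners, all 5 means were lower and none passed, with a median difference of -0.23. Brip1, a helicase that binds BRCA1 and is itself a Fanconi protein, measured 9.01, 8.63, 8.94 and 8.74 log2 in control and 8.59, 8.54, 8.65 and 8.21 with jasplakinolide. Only jasplakinolide 3 lay above a control array, control 2, and jasplakinolide 4 stood lowest. The difference was -0.33 ± 0.11 (SE, n = 4 each; limma adjusted p = 0.329), 1.26-fold lower, the second largest of the 33. Brca1, the ubiquitin ligase that steers breaks towards recombination, measured 8.80, 8.55, 8.78 and 8.66 in control and 8.58, 8.52, 8.53 and 8.24 with jasplakinolide, a difference of -0.23 ± 0.08 (SE, n = 4 each; limma adjusted p = 0.397). Jasplakinolide 1 lay above control 2, and the other jasplakinolide arrays lay below all controls. Bard1, the partner that BRCA1 needs as a ligase, and Brca2, which acts on the trimmed single strands, also differed by -0.23 each (SE 0.08 and 0.09).

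Palb2, which links BRCA1 to BRCA2, differed by -0.05 ± 0.05 (SE), with a 95% interval of -0.17 to 0.07. Bard1 was measured by 3 probe sets, whose differences were -0.23, -0.15 and -0.08, all lower.

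Rad51b, Rad51c, Rad51d and Xrcc3, related genes whose products work together in recombination, had a median difference of -0.08, and none passed the test. Rad51b measured 7.25, 7.15, 7.37 and 7.07 log2 in control and 7.13, 7.06, 7.12 and 6.82 with jasplakinolide (-0.17 ± 0.08, SE, n = 4 each; limma adjusted p = 0.622). Jasplakinolide 1 and 3 lay above control 4, so the groups overlapped. Rad51c measured 8.09, 7.74, 8.01 and 7.90 in control and 7.94, 7.86, 7.81 and 7.73 with jasplakinolide (-0.10 ± 0.08, SE, n = 4 each; limma adjusted p = 0.819). Control 2 lay below 3 of the 4 jasplakinolide arrays. Rad51d differed by -0.04 ± 0.05 and Xrcc3 by -0.05 ± 0.06 (SE), each with an interval that spans 0.

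Of the 3 accessory genes of strand pairing, Rad51ap1, Rad54l and Rad54b, all had a lower mean and none passed, with a median of -0.16. Rad51ap1, which aids strand pairing, measured 8.35, 7.97, 8.20 and 8.17 log2 in control and 8.07, 8.05, 7.97 and 7.90 with jasplakinolide (-0.17 ± 0.08, SE, n = 4 each; limma adjusted p = 0.581). Control 2 lay below jasplakinolide 1 and 2, and the other controls above all jasplakinolide arrays. Rad54l, a motor protein that drives strand exchange, measured 8.64, 8.40, 8.41 and 8.32 in control and 8.42, 8.30, 8.32 and 8.09 with jasplakinolide (-0.16 ± 0.09, SE, n = 4 each; limma adjusted p = 0.677). Jasplakinolide 1 lay above 3 of the 4 controls. Its relative Rad54b differed by -0.15 ± 0.09 (SE).

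End resection prepares the single strand, and its 4 measured genes had a median difference of -0.14, with none past the test. Exo1, the long-range exonuclease, measured 8.56, 8.38, 8.69 and 8.43 log2 in control and 8.44, 8.18, 8.42 and 8.19 with jasplakinolide (-0.20 ± 0.09, SE, n = 4 each; limma adjusted p = 0.536). Jasplakinolide 1 and 3 reached into the range of the controls, and jasplakinolide 2 and 4 lay below it. Rad50, the ATPase that tethers broken ends, measured 10.01, 9.89, 10.08 and 9.94 in control and 9.91, 9.82, 9.96 and 9.69 with jasplakinolide (-0.14 ± 0.07, SE, n = 4 each; limma adjusted p = 0.648). Jasplakinolide 1 and 3 again lay within the controls' range. The nuclease gene Mre11a of the same complex also differed by -0.14 (SE 0.05).

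Nbn, which recruits ATM to that complex, differed by -0.02 ± 0.05 (SE), with a 95% interval of -0.13 to 0.09. Its second probe set differed by 0.12, so the direction for Nbn depended on the probe set.

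Of the genes that take joined molecules apart, Blm, the helicase of the dissolution complex, measured 8.63, 8.30, 8.63 and 8.45 log2 in control and 8.29, 8.18, 8.46 and 8.19 with jasplakinolide (-0.22 ± 0.09, SE, n = 4 each; limma adjusted p = 0.485). Jasplakinolide 3 lay above control 2 and 4, and the other jasplakinolide arrays lay below all controls. Eme1, the partner of the MUS81 nuclease, measured 8.89, 8.66, 8.82 and 8.72 in control and 8.74, 8.57, 8.66 and 8.47 with jasplakinolide (-0.16 ± 0.07, SE, n = 4 each; limma adjusted p = 0.554). Jasplakinolide 1 lay above control 2 and 4. Rmi1, which works with BLM, differed by -0.01 ± 0.05 (SE), and its second probe set by -0.16.

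Mus81, the nuclease subunit itself, is given because it had the highest difference of the 33, a choice made after its values were seen. It measured 9.18, 8.99, 9.04 and 9.00 log2 in control and 9.12, 9.11, 9.14 and 9.14 with jasplakinolide, 0.08 ± 0.05 higher (SE, n = 4 each; limma adjusted p = 0.783). Control 1 lay above all jasplakinolide arrays and the other 3 controls below them. The intervals of Eme1 (-0.32 to 0.00) and Mus81 (-0.04 to 0.19) meet, and the difference between these partners was not tested.

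The checkpoint kinases and TOPBP1 signal unfinished repair to the cell cycle, and the means of all 5 genes were lower, by a median of -0.20, and none passed. Atm, the kinase that answers double-strand breaks, measured 9.20, 8.97, 9.23 and 9.05 log2 in control and 8.96, 8.83, 9.00 and 8.74 with jasplakinolide (-0.23 ± 0.08, SE, n = 4 each; limma adjusted p = 0.341). Only jasplakinolide 3 lay above a control array, control 2. Chek1, the kinase that ATR activates, measured 9.65, 9.32, 9.72 and 9.58 in control and 9.44, 9.30, 9.39 and 9.24 with jasplakinolide (-0.23 ± 0.09, SE, n = 4 each; limma adjusted p = 0.444). Control 2 lay below jasplakinolide 1 and 3, and the other controls lay above all jasplakinolide arrays. Chek2, the main target of ATM, differed by -0.20 ± 0.08 and Atr, the kinase that senses single-stranded DNA, by -0.05 ± 0.07 (SE).

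Topbp1, the activator of ATR, is given because its groups did not overlap, a choice made after its values were seen. It measured 10.96, 10.78, 10.88 and 10.88 log2 in control and 10.74, 10.67, 10.73 and 10.65 with jasplakinolide. The difference was -0.18 ± 0.05 (SE, n = 4 each; limma adjusted p = 0.212). After a further quantile normalization (adjusted p = 0.0469) or cyclic loess (0.0491) Topbp1 passed the limma test. In these fits 0.838% and 0.843% of all genes fell, against 0.336% without the further step.

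**Figure D2:**
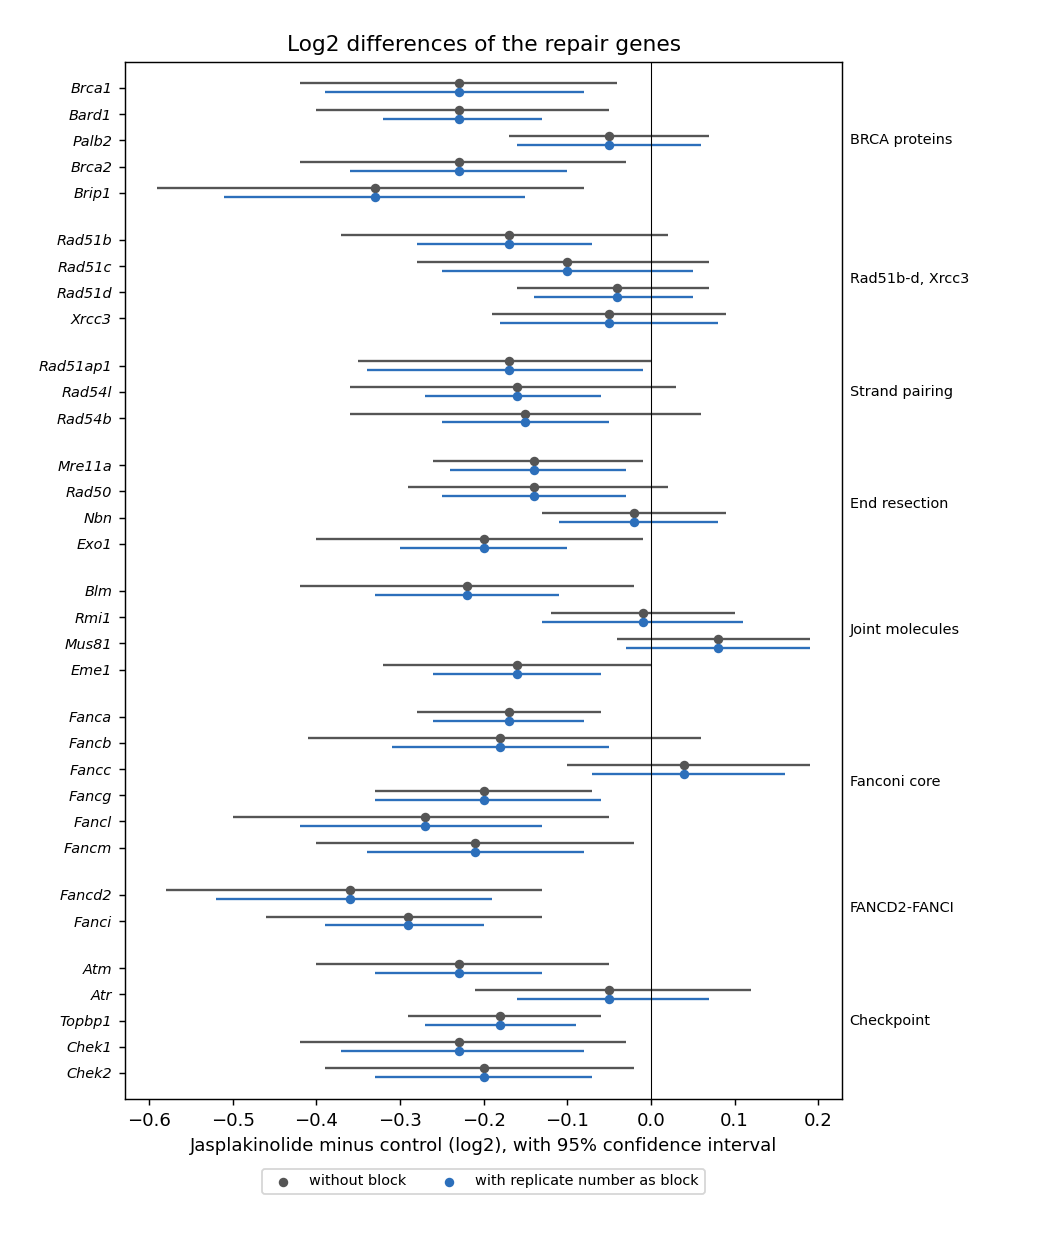
Log2 difference (jasplakinolide minus control) of each repair gene with its 95% confidence interval from limma, without (grey) and with (blue) the replicate number as a block. The intervals without the block lie wholly below 0 for 18 of the 33 genes and with it for 24, and for none wholly above 0.

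Replicate numbers were shared by the groups and, from the data, were taken to pair the arrays. The data bore this out less well for control 2 and jasplakinolide 4. Over all genes their deviations from the group means correlated more with each other (0.52) than with their same-numbered arrays (0.24 and 0.44). Within same-numbered pairs 23 of the 33 genes were lower with jasplakinolide in all 4 pairs, as were 11.5% of all genes, and 0 were higher in all 4, as were 13% of all genes. The number of repair genes that were lower was 32 in pair 1, 24 in pair 2, 31 in pair 3 and 30 in pair 4, and the median pair differences were -0.21, -0.07, -0.17 and -0.24. Pair 2, which holds control 2, thus showed the smallest difference, and pair 4, which holds jasplakinolide 4, the largest. With the number as a block 24 genes were lower (7.75% of all genes) and 0 higher (7.36%) at an unadjusted p under 0.05, and 1, Fanci, fell. When number 2 was left out of the blocked fit 6 fell, namely Atm, Brip1, Chek1, Fancd2, Fanci and Rad51ap1 (1.32% of all genes fell there). Without number 1, 3 or 4 none did, and 0.0351%, 0% and 0% of all genes fell. Without control 2 alone, 22 were lower at an unadjusted p under 0.05 (6.18% of all genes) and 16 had groups that did not overlap (6.29% of all genes). With any other single array left out, the number lower at an unadjusted p under 0.05 was at most 18, the number with all arrays. It was 8 without control 1 (3.89% of all genes), 8 without control 3 (3.52%), 9 without jasplakinolide 4 (3.95%) and 10 without jasplakinolide 2 (3.76%). It was 16 without control 4 (3.94%), 17 without jasplakinolide 3 (5.04%) and 18 without jasplakinolide 1 (4.57%).

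**Figure D3:**
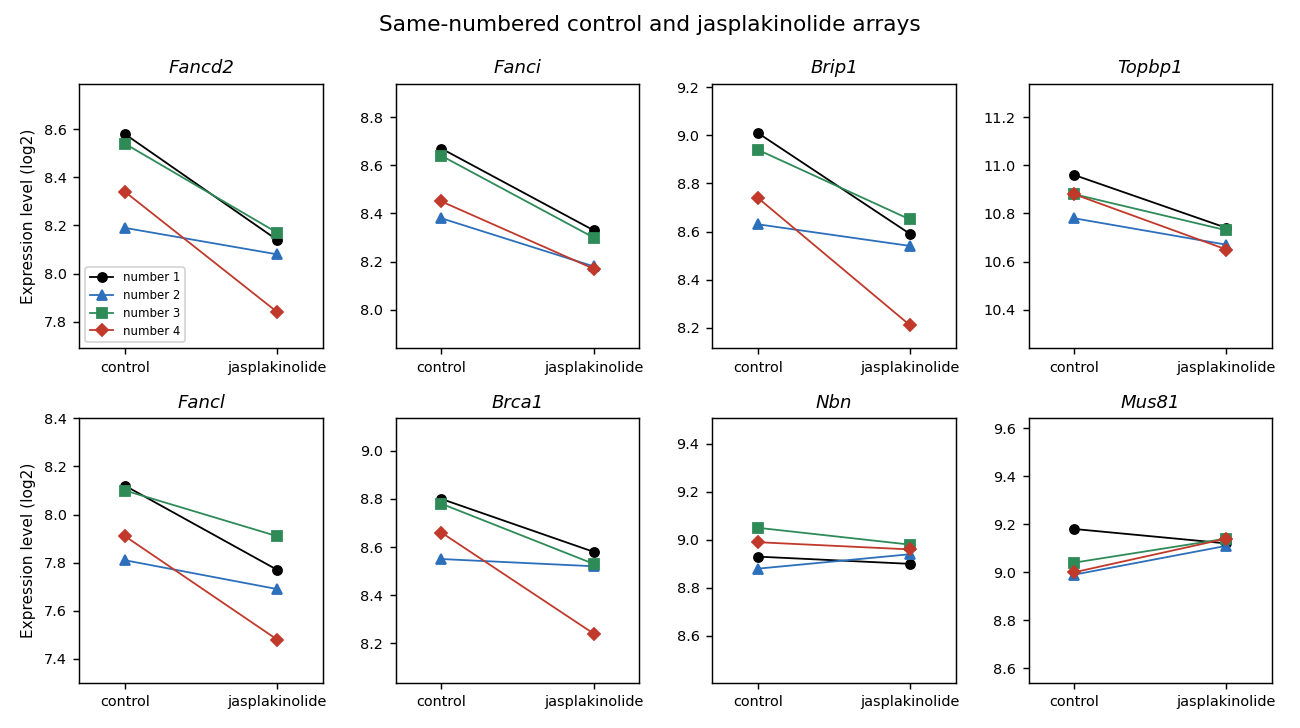
Level (log2) of 8 repair genes on the control and the jasplakinolide array of each replicate number, joined by a line for each number; every panel spans the same range of log2 units. Fancd2, Fanci, Brip1, Topbp1, Fancl and Brca1 are lower with jasplakinolide in all 4 pairs, Nbn in 3 and Mus81 in 1.

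The repair genes also varied together within the groups. For each gene the deviation from its group mean was taken on each of the 8 arrays. Over the 528 pairs of genes these deviations had a median correlation of 0.76 and were above 0 in 92.6%, a description over 8 arrays that share RNA, labelling and background. Chek2 and Atm followed the others most closely (median correlation 0.89 with the other genes each). Fancg (0.25) and Nbn (0.23) followed them little, and Xrcc3 ran against them (-0.68), with its highest value, 8.95 log2, on control 2.

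Further genes of the pathways were taken from a list of 41 by function, 37 of which had a value. None of them passed (0.772% of all genes changed), 4 were lower and 1 higher at an unadjusted p under 0.05, and the median difference was -0.03. Of the 37, 24 had a lower mean (43.6% of all genes), and 11 were lower in all 4 same-numbered pairs (11.5% of all genes). The largest differences were those of Gen1, a resolvase of joined molecules (-0.43 ± 0.10, SE), Clspn, an adaptor that helps ATR activate CHEK1 (-0.24 ± 0.07), and Ercc1, part of a nuclease that unhooks crosslinks (0.22 ± 0.06). Gen1 and Clspn fell with the replicate block (limma adjusted p = 0.0492 and 0.0456), where 1.08% of all genes fell. In blocked fits without number 1, 3 or 4 none of the 37 passed (0.191%, 0% and 0.0652% of all genes changed). Without number 2 only 1 did (2.3% of all genes). Of 13 end joining genes, the route that seals breaks without a template, none passed and 0 had an unadjusted p under 0.05, with a median of -0.05. Of these 13, 11 had a lower mean, and 5 were lower in all 4 pairs. Prkdc and Parp1 differed by -0.12 each and Poll by -0.09. Of 23 genes of excision and mismatch repair none passed, and the median was 0.00. Only 1, Xrcc1 (-0.10 ± 0.04, SE), was lower at an unadjusted p under 0.05. A lower mean was found for 13 of the 23, and 5 were lower in all 4 pairs. The largest differences were those of Msh6 (-0.15) and Neil2 (0.13), and Neil2 was not among the brighter 75% of genes.

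Genes of the dividing cell were lower in the same cultures. Of 30 DNA replication genes every mean was lower (median -0.16), and 1 fell, Rrm2, a ribonucleotide reductase subunit (-0.27 ± 0.05, SE; limma adjusted p = 0.0467), whose call was lost on leaving out any 1 of the 8 arrays. Of 25 mitosis genes 14 fell, with a median of -0.31, among them Cenpe (-0.40 ± 0.06, SE), Kif2c (-0.39 ± 0.07) and Cdc20 (-0.39 ± 0.05). This count changed with the arrays kept, as did that of all genes (154 with all arrays, 43 to 150 with 1 left out). Leaving out control 4 gave 0 mitosis genes, and leaving out control 1, control 3, jasplakinolide 1 or jasplakinolide 2 gave 1. Without jasplakinolide 4 it was 2, without jasplakinolide 3 it was 3, and without control 2 it was 17. All 25 mitosis genes were lower in all 4 same-numbered pairs (11.5% of all genes), and in 22 the groups did not overlap (3.29% of all genes). Of the 30 replication genes 24 were lower in all 4 pairs, and in 16 the groups did not overlap. At an unadjusted p under 0.05, 19 of these 30 were lower (4.71% of all genes). The mean of the 33 repair genes lay at 8.81, 8.60, 8.78 and 8.66 log2 on control arrays 1 to 4 and at 8.62, 8.53, 8.62 and 8.44 on jasplakinolide arrays 1 to 4. Control 2 was thus below jasplakinolide 1 and 3 for the repair genes. For the mitosis genes the controls (10.54 to 10.70) lay above all jasplakinolide arrays (10.28 to 10.39). The same was so for the replication genes (9.92 to 10.07 in control, 9.76 to 9.89 with jasplakinolide). Neither the part of these lists in the repair genes' difference nor the difference between the lists was tested. In bulk samples fewer dividing cells and less RNA per cell cannot be told apart.

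**Figure D4:**
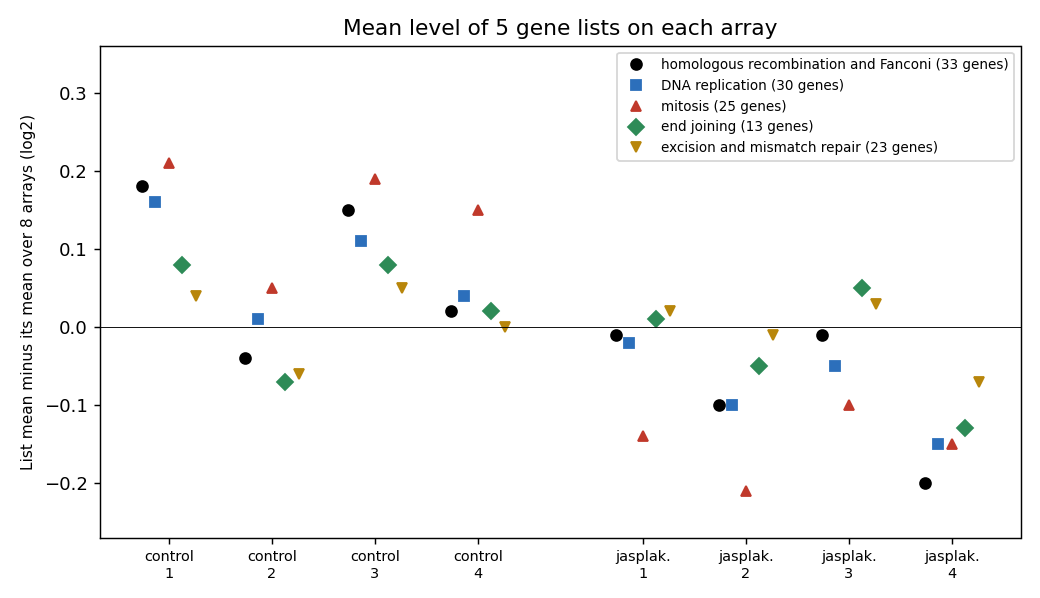
Mean log2 level of 5 gene lists on each array, as the difference from the list's mean over the 8 arrays; each symbol is 1 list on 1 array. The repair genes (black) lie between -0.04 and 0.18 on control arrays and between -0.20 and -0.01 on jasplakinolide arrays. The replication genes lie between 0.01 and 0.16 on control arrays and between -0.15 and -0.02 on jasplakinolide arrays.

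The labelled cell type was checked against markers. Of 10 smooth muscle markers 6 were among the brighter 25% of genes and 6 rose (5 with any 1 array left out; median log2 difference 0.40), and their mean lay at 10.49 to 10.62 log2 in control and 10.96 to 11.13 with jasplakinolide. Of 10 endothelial markers 6 were also among the brighter 25%, and 1 fell, Robo4 (-0.41 ± 0.06, SE; limma adjusted p = 0.017). Its call was lost on leaving out control 3, control 4, jasplakinolide 1 or jasplakinolide 2. The endothelial mean lay at 10.93 to 10.97 in control, above the smooth muscle mean, and at 10.68 to 10.82 with jasplakinolide, below it. Control means of single markers ran from 8.08 (Vwf) to 13.41 (Emcn) for the endothelial list. They ran from 7.57 (Des) to 13.41 (Acta2) for the smooth muscle list. By these levels the markers did not single out the labelled cell type in control. Levels of different probe sets cannot be ranked strictly against each other, so they do not tell which cell type prevailed. With the replicate block 3 endothelial markers fell, Kdr, Robo4 and Tek. These calls were lost without number 1, 3 or 4, and that of Tek also without number 2. The smooth muscle markers that rose numbered 6 with the block, and 3, 5, 0 and 3 without number 1, 2, 3 and 4. None of 6 fibroblast and 7 macrophage markers passed without the block, with median differences of -0.04 and -0.02. The bright fibroblast marker Dcn differed by -0.54 ± 0.12 (SE; limma adjusted p = 0.0916) from a control mean of 12.79 log2, and Dpt by -0.46 ± 0.11 from 5.55, and for both the groups did not overlap. With the block Dcn (limma adjusted p = 0.0134) and the macrophage marker Cd68 (-0.24 ± 0.07, SE, without the block; blocked adjusted p = 0.0424) fell. The Cd68 call was lost on leaving any number out of the blocked fit, and that of Dcn without number 3 or 4. The brighter macrophage marker Lyz2 went the other way (0.17 ± 0.05, SE, without the block), and its groups did not overlap. Dcn also fell with array weights, with the intensity trend and among the brighter 50% of genes. All markers named here except Robo4 were named after their values were seen. The means of the whole fibroblast and macrophage lists lay at 7.45 to 7.65 and 7.79 to 7.90 in control, and at 7.33 to 7.42 and 7.78 to 7.87 with jasplakinolide. Array signals have no true 0, and the part of other cell types in the repair genes' difference was not tested.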

How the data were processed

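The authors deposited log2 levels of 35556 probe sets on 8 Affymetrix arrays. The submitters' processing notes name RMA and Affymetrix Expression Console, with no version in the sources used here. Values ran from 2.29 to 14.2. Probe sets with 1 symbol in the platform annotation were kept (21789; 1621 had several and 12146 none), and the brightest probe set (by mean over all arrays) stood for a gene. The test was that of limma (version 3.58.1, R version 4.3.3; lmFit and eBayes, two-sided, with 6 residual and 3.43 prior degrees of freedom) between groups of 4 arrays, with Benjamini-Hochberg adjustment over 19938 genes. All 33 repair genes with a value were in the brighter 75% of genes and 27 in the brighter 50%.

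The repair genes and all lists were chosen with earlier results of these data known. All repair genes are named; array values are given for the 2 genes with the largest difference in each of 8 roles and for a few more, said to be chosen after their values were seen. From the other repair lists the 2 or 3 largest differences are named, and Xrcc1 for its unadjusted p. From the replication and mitosis lists up to 3 genes past the test are named. From the marker lists Robo4, the endothelial marker that passed, is named, and those said to have been picked after their values were seen. Across all genes, same-numbered arrays deviated from their group means together in all 4 pairs (correlation 0.24 to 0.56, against -0.62 to 0.52 for other combinations). The numbers were therefore taken to pair the arrays, which the labels do not state. Deviations within a group sum to 0 for each gene, so positive and negative correlations partly balance by construction. The blocked fits and pair counts use the same values from which the pairing was taken. Control 2, however, correlated more with jasplakinolide 4 (0.52) than with jasplakinolide 2 (0.24). Jasplakinolide 4 also correlated more with control 2 than with control 4 (0.44). Values are without a block unless one is named. The code was tested on simulated data. Alternatives were the replicate block, brighter genes only, array weights, median centring, cyclic loess, a further quantile normalization, an intensity trend (robust prior), averaging of probe sets, a stricter threshold and leaving out arrays. The small number of arrays limits the precision. Scan dates were not used here. Promoters were searched and figures drawn in Python 3.11.15 (matplotlib 3.10.9).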

Additional observations from a re-analysis of the deposited data

Results flagged for a closer look

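For Rad51d, a recombination gene, jasplakinolide 4 stood far below the other jasplakinolide arrays (8.69 log2, against 8.84 for the nearest), with a gap of 0.926 of the group's range. This was the only one of 66 groups of 4 arrays (33 genes in 2 conditions) past Dixon's 95% critical value, which chance passes in about 1 in 20 groups.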

How the results depend on the processing

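The median log2 difference of the repair genes stayed between -0.21 and -0.14 in all fits run (-0.21 to -0.14 with 1 array left out). Rmi1, Nbn, Rad51d, Atr and Fancc changed sign in 1 or more fits. Of the genes with the 2 largest differences in each role, which were picked by size, those that passed in any fit did so only with the replicate block (7 cases). The number of repair genes that fell was 1 after cyclic loess, after a further quantile normalization and with the replicate block, 0 in the other fits without the block, and 0 to 6 in the blocked fits with a replicate number left out. Fits with fewer arrays have fewer degrees of freedom. The number of all genes that changed was 154, and 377 with the replicate block, 296 among the brighter 50%, 296 after quantile normalization, 297 after cyclic loess, 358 with an intensity trend and robust prior, 457 with array weights and 45 at an adjusted p under 0.01; it was 43 to 150 without 1 array and, in blocked fits, 38, 458, 0 and 13 without number 1, 2, 3 and 4. The other recombination and Fanconi genes that changed numbered 2 with the block, the trend or array weights, 1 after quantile normalization, cyclic loess or without both control 2 and jasplakinolide 4, and 0 to 1 without 1 array. DNA replication genes that changed numbered 4 among the brighter 50%, 0 after median centring, 6 after quantile normalization or cyclic loess, 3 with the trend or array weights, 0 at 0.01, 0 without control 2 and jasplakinolide 4, 0 without 1 array and 0 to 3 in blocked fits without a number. Mitosis genes that changed numbered 22 after quantile normalization or cyclic loess and with the trend or array weights, 1 at 0.01, 0 to 17 without 1 array and 0 to 19 in blocked fits without a number. The cause of these shifts was not tested. End joining and excision and mismatch repair genes kept a count of 0 in every fit. The alternatives that left out control 2 with jasplakinolide 4, or a replicate number from the blocked fit, were chosen after seeing the data.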
